A study of Homo sapiens with 8 samples.

Results

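The genes described here are those that encode FACT, CTCF, cohesin and the factors that load, hold or release cohesin, 10 genes in all: SSRP1, SUPT16H, CTCF, RAD21, SMC3, STAG1, NIPBL, WAPL, PDS5A and PDS5B. They were chosen by name, and the CTCF peaks centred in the gene body of each, as GENCODE places it on hg19, or within 100 kb on either side of it were collected. The 10 windows held 85 of the 47470 peaks of control cells and 57 of the 29558 peaks of CBL0137-treated cells. The cells were HT1080, a fibrosarcoma line derived from connective tissue and labelled as ras-positive, and the treated cells had been exposed to 3 µM CBL0137, a curaxin, for 6 h, whereas no treatment is given for the control cells. Chromatin was immunoprecipitated with a polyclonal anti-CTCF antibody, and 2 ChIP and 2 input libraries were made for each condition, 8 in all. The authors' peak caller combined the replicates of a condition in a single list, so that each peak has 1 fold enrichment of ChIP over input, with no value per replicate. Signal per library was not analysed here. The spread between replicates could therefore not be computed from these lists, no test between conditions was run on any peak, and shares are given with Wilson 95% intervals, which cover counting error only. A control peak was called kept if a peak of treated cells overlapped it by at least 1 bp and lost otherwise, and a treated peak that overlapped no control peak was called arisen. A lost peak is one that was not called in treated cells, which does not mean that no CTCF was left there.

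As background, cohesin is a ring that extrudes loops of chromatin until it meets CTCF bound to its motif in the right orientation. SMC3 and RAD21 are parts of the ring and STAG1 binds to it, NIPBL loads it onto DNA and drives extrusion, WAPL opens the ring to release it, and PDS5A and PDS5B hold on to it and take part in both its release and its halt at CTCF. FACT, the dimer of SSRP1 and SUPT16H (also called SPT16), is a histone chaperone that takes nucleosomes apart and puts them together again, and curaxins are known to trap it on chromatin.

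A control CTCF peak centred within 1 kb of an annotated start of a protein-coding transcript, which is called a promoter peak here, was present at 5 of the 10 genes: CTCF, STAG1, NIPBL, PDS5A and PDS5B. All 5 of these promoter peaks were kept in treated cells. Sequences from 4 of them are shown because these peaks lie at the promoters of genes of CTCF's own machinery. A peak call does not place CTCF at the bases shown. Each run gives the best match to the core of the CTCF consensus, with the 12 bases of the match in capitals and 24 flanking bases on each side, read from GRCh37 on the strand of the match.
CTCF promoter, chr16:67596641-67596700, plus strand: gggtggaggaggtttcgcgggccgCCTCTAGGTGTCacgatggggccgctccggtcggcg
STAG1 promoter, chr3:136471225-136471284, minus strand: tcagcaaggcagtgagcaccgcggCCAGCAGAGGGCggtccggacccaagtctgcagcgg
PDS5A promoter, chr4:39979606-39979665, minus strand: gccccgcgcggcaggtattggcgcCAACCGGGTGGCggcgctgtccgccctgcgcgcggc
PDS5B promoter, chr13:33160469-33160528, plus strand: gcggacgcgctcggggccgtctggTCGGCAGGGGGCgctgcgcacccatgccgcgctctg
The match at STAG1 had 0 mismatches to the core and the other 3 had 2 mismatches each. In each of the 4 the match lay on the same strand as the gene. A match with at most 2 mismatches is weak evidence of a motif, since 23.1% of windows of 400 bp placed 10 kb away from the control peaks held one. At the NIPBL promoter the best match had 3 mismatches and is not shown.

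The promoter peaks differed in strength and in how their rank changed. At CTCF itself, the peak chr16:67596451-67597000 lay 234 bp downstream of the start, with a fold enrichment of 37.4 over control input, at percentile 72.6 of the control list. In treated cells the peak at the same place was narrower, 400 bp against 550 bp, and had a fold enrichment of 32.3 over treated input, at percentile 60.5 of its own list. The STAG1 peak chr3:136470951-136471450, centred 7 bp from the start, was the strongest of the 5, at 56.6-fold in control cells (percentile 95.8) and 43.4-fold in treated cells (percentile 80.5). At PDS5A the peak chr4:39979201-39979850 was centred 5 bp from the start, with 52.0-fold enrichment (percentile 93.0) before treatment and 57.4-fold (percentile 94.2) after it. At PDS5B the peak chr13:33160301-33160700 spanned the start and had the same borders in both lists, with 47.7-fold enrichment in control cells and 62.1-fold in treated cells, at percentiles 89.2 and 96.4. The NIPBL peak chr5:36876001-36876250 was the weakest and lay farthest from the start, 745 bp upstream, in an exon of the divergent long noncoding RNA gene NIPBL-DT. Its percentile was 42.0 in control cells, with 25.9-fold enrichment, and 9.7 in treated cells, with 12.2-fold enrichment. The folds of the lists are relative to different inputs and were not divided by each other, and the percentile within each list is given instead. Percentiles have a limit of their own, because the control list is longer and the peaks missing from the treated list were mostly weak ones. A kept peak of unchanged signal would therefore tend to have a lower percentile in the treated list. Ranked only among the 27107 kept peaks of the whole list in both conditions, a choice made after seeing the data, the CTCF promoter peak was at percentiles of 57.9 and 57.6, that of STAG1 at 93.0 and 78.9, that of NIPBL at 21.7 and 8.34, that of PDS5A at 88.5 and 93.7 and that of PDS5B at 82.6 and 96.1. The control promoter peaks of CTCF and PDS5A overlapped a site that the authors list as higher in control cells in their direct comparison of the conditions, and those of STAG1, NIPBL and PDS5B did not. The treated peak at the CTCF promoter overlapped such a site too. At PDS5A the treated peak was narrower, 350 bp against 650 bp, and did not overlap one. Among 20090 protein-coding genes, 22% had a control promoter peak, and of those genes 72.9% had one that was kept.

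SSRP1, SUPT16H, RAD21, SMC3 and WAPL had no promoter peak in either list. Their nearest control peak was 4.56 kb from the start at SSRP1, 10.5 kb at SMC3, 11.6 kb at SUPT16H, 12.9 kb at RAD21 and 20.2 kb at WAPL. Both FACT genes were among them, as were SMC3 and RAD21 of the ring.

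**Figure D1:**
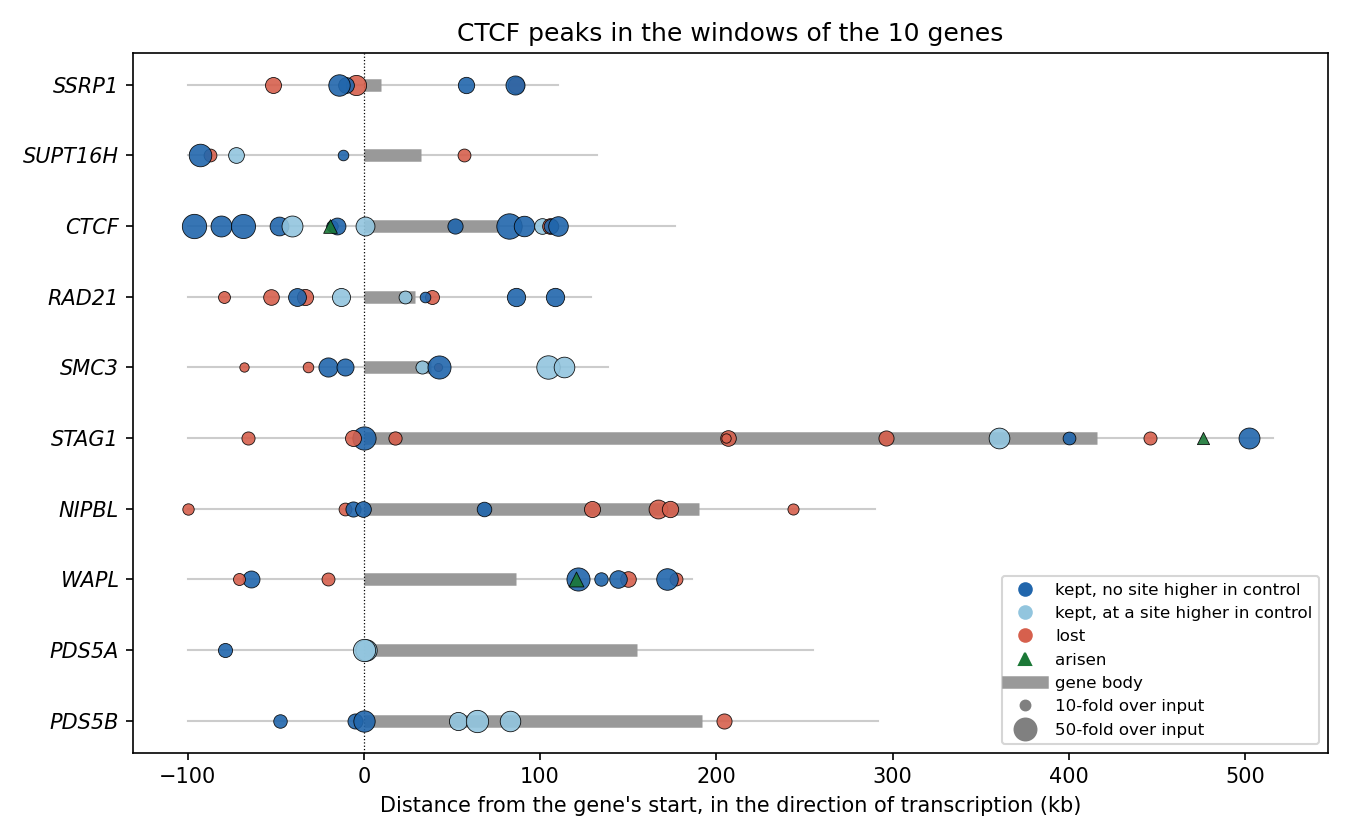
Position of CTCF peaks in the window of each gene, as distance from the gene's start in kb in the direction of transcription, with the area of a symbol in proportion to the fold enrichment over input and the gene body in gray. Circles are control peaks, blue where kept, light blue where kept at a site listed as higher in control cells and red where lost, and green triangles are the 3 arisen peaks. Symbols at 0 kb mark the promoter peaks of CTCF, STAG1, NIPBL, PDS5A and PDS5B.

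Of the 85 control peaks in the windows, 31 were lost (36.5%, Wilson 95% interval 27.0% to 47.1%) and 54 were kept. Over the whole control list 42.9% of peaks were lost, a value within that interval. The counts by gene ran from 0 of 3 at PDS5A (interval up to 56.1%) and 1 of 15 at CTCF (1.19% to 29.8%) to 7 of 11 at STAG1 (35.4% to 84.8%) and 6 of 9 at NIPBL (35.4% to 87.9%). The interval held 42.9% at every gene except CTCF, and differences among the genes were not tested. The CTCF window held 15 of the 85 peaks, and without it 30 of 70 were lost (42.9%, 31.9% to 54.5%). To set the counts beside the strength of the peaks, the whole control list was divided by fold enrichment into 10 bins of equal size, and the lost share of each bin was applied to the peaks it held in the windows, which gave 36.2 lost peaks against 31 observed. The same sum gave 4.24 for CTCF, where 1 was lost, 5.36 for STAG1, where 7 were lost, and 4.97 for NIPBL, where 6 were lost. Applied to 10 bins of GC content instead, a choice made after the values were seen, it gave 33.8 for all windows and 3.99 for CTCF. The share moved most with the overlap rule and the length of the control list, to 60% when more than 75% of the larger peak had to overlap and to 23.1% when only the strongest control peaks, as many as there are treated peaks, were used, and the whole list gave 67.7% and 24.6% under these rules.

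Sites that the authors list as higher in control cells overlapped 40 of the 85 control peaks, or 47.1%, against 51.2% of the whole control list. They covered 25 of the 31 lost peaks (80.6%) and 15 of the 54 kept peaks (27.8%). Lost peaks away from such sites numbered 2 at SMC3, 2 at WAPL, 1 at SUPT16H and 1 at NIPBL. Over the whole list 78.4% of lost and 30.8% of kept peaks lay at such a site. Both analyses rest on the same libraries. Arisen peaks numbered 3 of the 57 treated peaks, or 5.26% (1.81% to 14.4%), against 8.07% of the whole treated list. When more than 50% of the larger peak had to overlap, 8 of 57 counted as arisen (14.0%), against 20.8% of the whole treated list. The first of the 3 was in an intron of RIPOR1 near CTCF, at chr16:67577101-67577300, with 19.7-fold enrichment over treated input. The others were in an intron of PCCB beyond STAG1, at chr3:135995001-135995150, with 15.6-fold enrichment, and in intergenic DNA beyond WAPL, at chr10:88160951-88161150, with 23.3-fold enrichment. Those near CTCF and WAPL overlapped a site listed as higher in treated cells, and so did 1 kept peak in the SUPT16H window, which makes 3 of 57 treated peaks against 7.25% of the whole treated list.

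**Figure D2:**
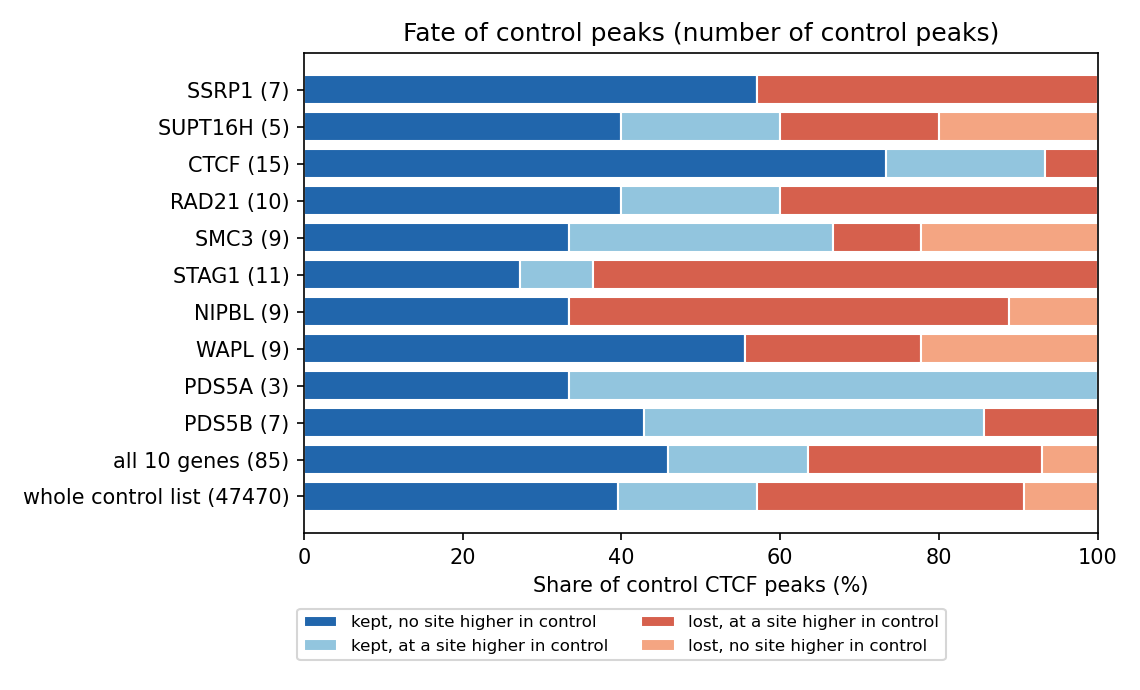
Fate of the control CTCF peaks in the window of each gene, in all 10 windows and in the whole control list, as a share in percent, with the number of control peaks in parentheses. Blue shades are kept peaks and red shades lost peaks, divided by whether they overlap a site that the authors list as higher in control cells. The CTCF window lost 1 of 15 peaks, and the STAG1 window 7 of 11.

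The FACT genes had few peaks, none within the gene body. In the window of SSRP1 (chr11:57093460-57103366, minus strand), 4 of 7 control peaks were kept and 3 were lost, and each lost peak lay at a site higher in control cells. For all 4 kept peaks the percentile was higher after treatment than before. The strongest was in an intron of P2RX3, which encodes an ATP-gated ion channel, at chr11:57117301-57117700, with percentiles of 89.7 in control cells and 99.9 in treated cells and fold enrichments of 48.2 and 91.3. The lost peak closest to the start of SSRP1, at chr11:57107851-57108000 and also in P2RX3, had been at percentile 82.4 with 42.6-fold enrichment, the highest of any lost peak in the 10 windows, and was only 150 bp wide. At SUPT16H (chr14:21819635-21852178, minus strand), 3 of 5 control peaks were kept. The stronger of the lost peaks, chr14:21795251-21795400 in an intron of RPGRIP1, had 17.4-fold enrichment. The kept peaks included a peak at the promoter shared by TOX4, a subunit of a phosphatase complex, and RAB2B, a small GTPase, at chr14:21945051-21945500, which fell from percentile 94.0 to 65.2. Another was at the promoter of CHD8, a chromatin remodeler of the CHD family, at chr14:21924401-21925050, where the peak of 650 bp was 300 bp wide in treated cells. That control peak overlapped a site higher in control cells, and the percentiles were 42.5 in control cells and 46.8 in treated cells. In an intron of CHD8, 11.6 kb upstream of SUPT16H, the weak control peak chr14:21863751-21863900 (11.8-fold, percentile 6.26) was at percentile 53.4 in treated cells and overlapped a site higher in treated cells. The call at SUPT16H depended on the overlap rule, since 4 of its 5 control peaks, and 7 of 12 for both FACT genes, counted as lost when more than 50% of the larger peak had to overlap. Under that rule the lost share rose over the whole control list too, to 50.7%. Under the rule of any overlap, over both FACT windows, 5 of 12 control peaks were lost (41.7%, 19.3% to 68.0%), against 42.9% of the whole control list. Of the 7 kept peaks, 6 had a higher percentile in the treated list. This held both in the whole lists, where 35.2% of all kept peaks rose, and among kept peaks only, where 51.2% rose. These 6 include both peaks at CHD8, which counted as lost when more than 50% of the larger peak had to overlap. The peaks are few, and the difference from the whole list was not tested.

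The window of CTCF (chr16:67596370-67673080, plus strand) was the densest, with 5.42 control peaks per 100 kb against 0.845 to 4.37 in the others, and the median GC content around its peaks was 59.6% over 500 bp. Of its 15 control peaks 14 were kept. The strongest, chr16:67678551-67678950, lay 156 bp upstream of a start of CARMIL2, a regulator of actin capping, with 67.5-fold enrichment in control cells at percentile 98.9 and 51.0-fold in treated cells at percentile 89.4. A peak at a second start of CARMIL2, chr16:67687051-67687300, was kept but moved from percentile 84.4 to 33.6. A promoter peak was also kept at ATP6V0D1, which encodes a subunit of the vacuolar proton pump, with percentiles of 87.0 and 83.8. The only lost peak was at chr16:67701901-67702050, in an exon of C16orf86 and 765 bp from its start, with 25.7-fold enrichment in control cells. Farther on in the same gene, the kept peak chr16:67702451-67702700 moved from percentile 32.1 to 68.6. Within the CTCF gene itself there were 2 control peaks, at the promoter and in an intron 51.6 kb downstream of the start, and both were kept.

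Among the genes of the ring and its STAG subunit, 14 of 30 control peaks (46.7%, 30.2% to 63.9%) had no counterpart after treatment, against 42.9% of the whole control list. The sum over bins of fold enrichment gave 14.5. In the window of SMC3 (chr10:112327442-112365806, plus strand), 3 of 9 control peaks were lost, and these were the weakest in the window, with fold enrichments of 6.93, 9.16 and 11.7. The 2 peaks in introns of RBM20, which encodes a splicing factor, were kept but showed the largest falls in percentile of the windows, in the whole lists and also among kept peaks only (falls from 93.6 to 23.7 and from 76.8 to 5.14). They were chr10:112431801-112432250, from percentile 96.1 to 26.3 with fold enrichments of 57.4 and 18.6, and chr10:112440801-112441200, from 85.4 to 6.01 with fold enrichments of 44.6 and 10.7. The authors list both as higher in control cells. The peak chr10:112370051-112370450, 42.8 kb downstream of the start of SMC3 and just beyond its end, kept its borders, at percentiles of 95.4 and 81.3. In the STAG1 window (chr3:136055078-136471245, minus strand), the 416 kb gene held 7 control peaks in its body, of which 4 were lost, all in introns, and each at a site higher in control cells. The kept peaks in the body were the promoter peak, chr3:136110501-136110850, which moved from percentile 86.1 to 60.1, and chr3:136070751-136071050, at percentiles of 18.0 and 19.8. The promoter peak of PCCB, a subunit of propionyl-CoA carboxylase, was kept but moved from percentile 87.3 to 25.9, with 46.0-fold enrichment in control cells and 18.4-fold in treated cells. The promoter peak of SLC35G2, a putative solute carrier, was lost, as was the peak chr3:136477301-136477650, 6.2 kb upstream of the start of STAG1, which was the strongest lost peak of the window at 26.7-fold enrichment.

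In the RAD21 window (chr8:117858173-117887015, minus strand), 4 of 10 control peaks were lost, all 4 at sites higher in control cells. The strongest of these, chr8:117920251-117920500, was intergenic, 33.4 kb upstream of RAD21, with 27.4-fold enrichment. The single peak in the body of RAD21 was intronic, at chr8:117863401-117863750, and was kept at a site higher in control cells, with 17.3-fold enrichment in control cells and 8.03-fold in treated cells, at percentiles of 18.6 and 1.55, or of 5.27 and 1.27 among kept peaks only. The peak at the promoter shared by EIF3H, a subunit of a translation initiation factor, and UTP23, a ribosome biogenesis factor, was kept and moved from percentile 67.6 to 21.6. An intronic peak of UTP23, chr8:117800601-117801000, kept its borders and moved from percentile 67.5 to 86.5.

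The loader, release and PDS5 genes had 28 control peaks in their windows, of which 11 were lost (39.3%, 23.6% to 57.6%), against 42.9% of the whole control list. The sum over bins of fold enrichment gave 12.4, and the counts differed among these genes. At NIPBL (chr5:36876871-37066515, plus strand), 6 of 9 control peaks were lost, and 3 of the 4 in the gene body. The strongest control peak of the window was among them, at chr5:37043901-37044100 in an intron, with 37.3-fold enrichment at percentile 72.2. The kept peak 6.1 kb upstream of the start, chr5:36870551-36870950 in an intron of NIPBL-DT, moved up from percentile 36.9 to 79.0. At WAPL (chr10:88195013-88281549, minus strand), the gene body held no peak in control cells, and 4 of the 9 peaks in the flanks were lost, with fold enrichments of 15.1 to 25.5, the highest of these at chr10:88131501-88131700. The strongest peak of that window, chr10:88159551-88159950, was kept and moved from percentile 95.4 to 63.4. PDS5A (chr4:39824483-39979576, minus strand) had 3 control peaks in a window of 355 kb, and all were kept. They were the promoter peak, a peak 1.3 kb downstream at chr4:39978001-39978500, which moved from percentile 89.6 to 54.4, and the promoter peak of N4BP2 at percentiles of 27.9 and 27.2. No peak lay in the rest of the 155 kb gene. At PDS5B (chr13:33160589-33352157, plus strand), 6 of 7 control peaks were kept. Its 3 intronic peaks, 53.2 kb, 64.5 kb and 82.8 kb from the start, were all kept, all at sites higher in control cells and all at lower ranks in treated cells, from percentiles of 66.3, 93.1 and 84.6 to percentiles of 14.1, 43.6 and 48.7, and among kept peaks only from 49.5, 88.6 and 75.6 to 12.3, 40.5 and 45.6. The promoter peak of N4BP2L2 was kept as well, at percentiles of 23.3 and 28.1. The lost peak of the window, chr13:33365001-33365100, lay beyond the end of the gene, 204.5 kb from its start, and was 100 bp wide.

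**Figure D3:**
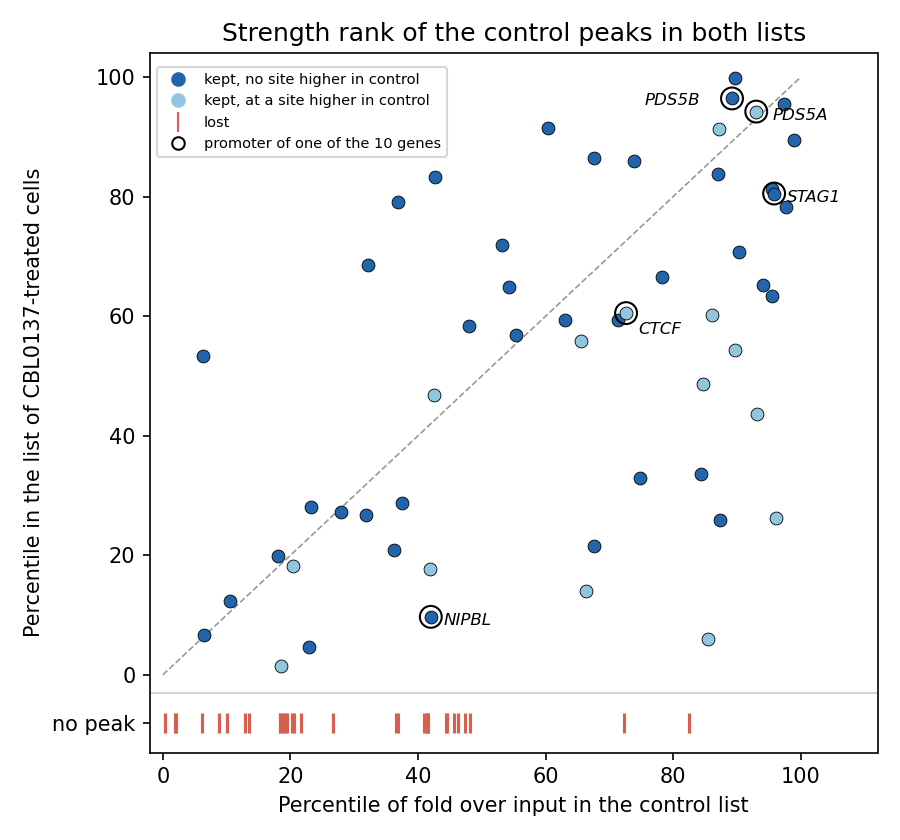
Percentile of the fold enrichment over input of each control peak of the windows in the control list (x axis) and of the overlapping peak in the list of CBL0137-treated cells (y axis), with lost peaks as red bars in the row labelled no peak. Dark blue points are kept peaks, light blue points kept peaks at a site listed as higher in control cells, rings mark promoter peaks of the 10 genes, and the dashed line is an equal percentile. Of the 54 kept peaks, 34 lie below the line. The peaks missing from the treated list were mostly weak ones, so that a kept peak of unchanged signal would tend to lie below it.

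Percentiles of the kept peaks were then compared over all windows. Of the 54 kept peaks, 34 had a lower percentile in the treated list than in the control list and 20 a higher one, with a median change of -9.1 points, against -9.21 points over all kept peaks of the whole list. When peaks were ranked among kept peaks only, the median change was 2.54 points, with 25 peaks lower and 29 higher, against 0.69 points over the whole list. In such a ranking rises and falls balance over all kept peaks by construction, so it cannot show a fall shared by all of them. The 15 kept peaks at a site higher in control cells had a median change of -24.1 points, and 12 of them fell. For the other 39 kept peaks the median change was -3.22 points, with 22 falling. The whole list gave -32.0 and -1.74 points for these classes. Among kept peaks only, the medians were -5.91 points at such sites and 8.39 points elsewhere, against -18.0 and 7.78 points over the whole list. The sites were called from the same libraries that give the ranks, so a difference between these classes is partly built in. In width, 30 of the kept peaks were narrower in treated cells (55.6%), 9 were wider (16.7%) and 15 were equal (27.8%), against 62.4%, 15.0% and 22.6% of all kept peaks. Lost peaks had been weaker, with a median fold enrichment of 18.5 over control input (range 6.93 to 42.6) against 35.2 (11.8 to 67.5) for kept peaks, and the ranges overlapped. Over the whole list these medians were 20.6 and 34.9.

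Fates were also counted by the place, base composition and strength of the peaks. Among all 17 promoter peaks of protein-coding genes in the windows, 2 were lost (11.8%, 3.29% to 34.3%), those of C16orf86 and SLC35G2. Over the whole control list 30.0% of promoter peaks were lost, which lies within that interval. Of the 68 peaks elsewhere, 29 were lost (42.6%, 31.6% to 54.5%), against 44.3% of the whole list. Within the bodies of the 10 genes, 7 of 20 peaks were lost, and 24 of the 65 outside them. Both shares were near the 36.5% lost over all 85 peaks of the windows. No share for gene bodies in the whole list is given here. By GC content, 19 of 36 peaks in DNA of under 45% GC were lost (52.8%), 6 of 20 between 45% and 55% (30.0%) and 6 of 29 at 55% or more (20.7%), and the whole list gave 54.1%, 40.4% and 21.2%. Of the 23 peaks in the strongest 25% of the control list, 1 was lost (4.35%, 0.772% to 21.0%), against 11.8% of that class as a whole, and of the 24 in the weakest 25%, 16 were lost (66.7%), against 80.2%. Promoter position, GC content and strength are not independent of each other, and their separate parts in the fate of these peaks were not tested.

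**Figure D4:**
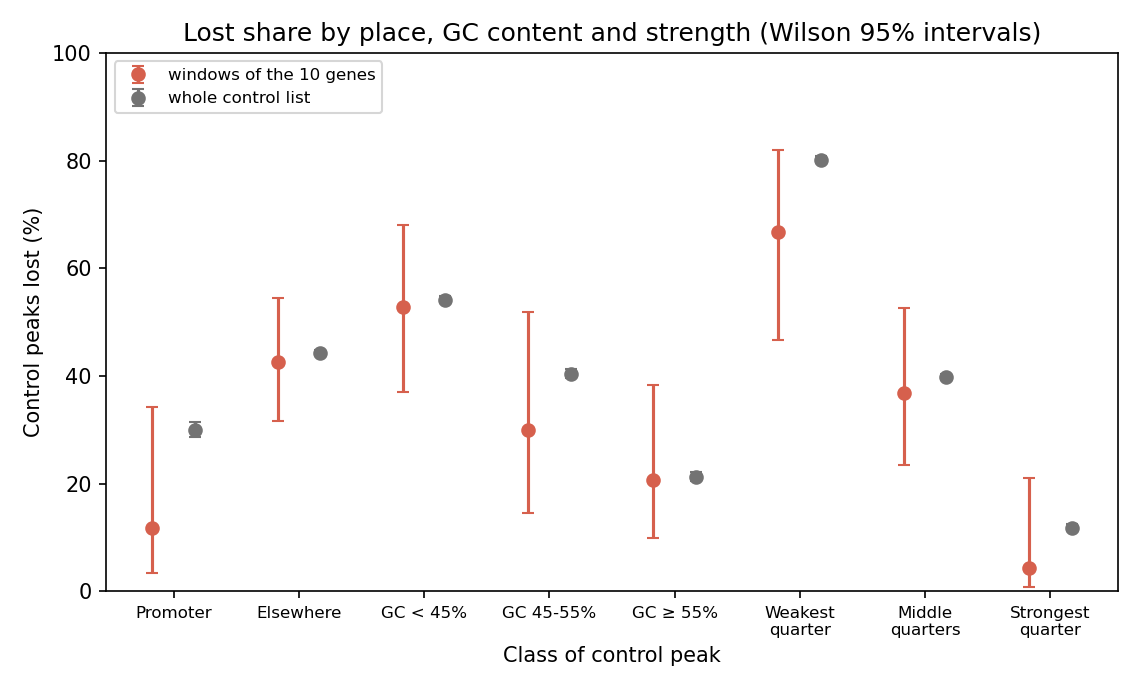
Share of control CTCF peaks that were lost, in percent, for peaks at protein-coding promoters and elsewhere, for 3 classes of GC content and for classes of fold enrichment over input, in the windows of the 10 genes (red) and in the whole control list (gray). Bars are Wilson 95% intervals, which cover counting error only. In the windows 2 of 17 promoter peaks and 1 of 23 peaks of the strongest class were lost.

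The core of the CTCF consensus was looked for on either strand in 400 bp about the middle of each peak, to see whether the peaks hold the sequence that CTCF binds. Of the control peaks, 40 of 85 had a match with no more than 1 mismatch (47.1%, 36.8% to 57.6%), against 49.0% of the whole control list and 2.81% of windows 10 kb away. It was present in 29 of the 54 kept peaks (53.7%) and in 11 of the 31 lost peaks (35.5%), where the whole list gave 62.2% and 31.5%. A match without any mismatch was found in 6 of the 54 kept peaks (11.1%, 5.19% to 22.2%) and in 0 of the 31 lost peaks, for which the interval reaches 11.0%, where the whole list gave 21.2% and 4.12%. Of the promoter peaks, 3 of 17 had a match with at most 1 mismatch (17.6%), against 35.3% of promoter peaks in the whole list. The following 5 matches are shown with 10 flanking bases, the 12 bases of the core in capitals, because they lie in peaks with different outcomes: a peak that rose in rank, 3 kept peaks that fell in rank, and the strongest lost peak of the NIPBL window.
P2RX3 intron near SSRP1, kept, chr11:57117470-57117501, minus strand: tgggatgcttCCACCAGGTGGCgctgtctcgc
RBM20 intron near SMC3, kept, chr10:112431996-112432027, minus strand: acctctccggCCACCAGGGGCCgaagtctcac
PDS5B intron, kept, chr13:33213830-33213861, minus strand: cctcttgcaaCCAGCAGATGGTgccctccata
PDS5B intron, kept, chr13:33225055-33225086, minus strand: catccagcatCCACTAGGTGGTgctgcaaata
NIPBL intron, lost, chr5:37043964-37043995, plus strand: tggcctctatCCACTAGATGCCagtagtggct
The first has 0 mismatches to the core and the others have 1 each. The kept peak of P2RX3 ranked at percentile 99.9 in treated cells. In these 5 chosen examples, matches with at most 1 mismatch lay in a peak that gained rank, in peaks that lost rank and in a peak that was lost. The examples do not replace the shares of kept and lost peaks given above.

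For comparison, windows made in the same way around all protein-coding genes with at least 5 control peaks, 14197 in number, had a median lost share of 33.3% (quartiles 20% and 50%). These windows overlap each other and are not independent. Among them, 6.12% had a lower lost share than CTCF and 14.6% than PDS5B, with ties divided evenly, whereas 91.9% had a lower share than STAG1 and 93.4% than NIPBL. The other genes with 5 or more peaks lay between 49.9% at SMC3 and 71.4% at WAPL. PDS5A had too few peaks to be placed.

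A further 18 genes of cohesin, CTCF and condensin were examined in the same windows. They held 143 control peaks, of which 54 were lost (37.8%, 30.2% to 45.9%). Over the whole control list 42.9% of peaks were lost, a value within that interval. The sum over the 10 bins of fold enrichment gave 57.4 lost peaks. At the genes that pair with those above, 5 of 8 control peaks were lost at STAG2, the paralog of STAG1, and 3 of 8 at MAU2, the partner of NIPBL, whereas at SMC1A, the partner of SMC3 in the ring, 2 of 12 were lost. A promoter peak was present at 4 of the 18 genes, and at 22% of all 20090 protein-coding genes. Among all genes with a promoter peak, 72.9% had one that was kept. The promoter peaks of STAG2, with 70.4-fold enrichment over control input, and of the acetyltransferase gene ESCO1, with 53.9-fold, were kept. The promoter peaks of HDAC8, which encodes the deacetylase that acts on SMC3, with 20.7-fold enrichment, and of ESPL1, which encodes separase, with 15.7-fold, were lost. CTCFL, the germline paralog of CTCF, had no promoter peak and lost 5 of 13 control peaks in its window.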

How the data were processed

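CTCF ChIP-seq peak lists of HT1080 cells were analysed as deposited. Per the labels and methods, the authors mapped reads to hg19 with Bowtie2 2.2.3, removed ambiguous and duplicate reads with SAMtools 1.5 and called peaks with PePr, modelling the replicates of a condition together. The fold enrichment in the deposited lists is a ratio of ChIP over input made by the authors, and the FDR (an adjusted p-value) is also theirs. Of the 2 differential lists only site positions were used, since their other columns (score, fold, p-value, FDR) hold the authors' own comparison. Depth per library was not analysed here.

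Genes and starts came from GENCODE v44lift37, and sequence from GRCh37, beyond whose chromosome ends 0 peaks lay. A peak belonged to a window by its centre. Starts were those of protein-coding transcripts. Percentiles are ranks of fold enrichment within a list. GC content refers to 500 bp. The core of the CTCF consensus has 12 positions and was searched with ambiguity letters. Named peaks were the promoter peaks, the strongest and strongest lost peak of each window and the arisen peaks, with at most 4 further promoters per window. The values of 1 such promoter are not reported here. Other peaks were named after their values were seen. The members and lists were chosen with earlier results of these data known.

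Peaks were handled in Python 3.11.15 with pandas 2.3.3 and numpy 2.4.6, the genome was read by pysam 0.24.0 and samtools 1.23.1, figures came from matplotlib 3.10.9 and intervals from scipy 1.17.1. The routines were tested on simulated data. Other overlap rules, list thresholds, window sizes, mismatch limits and promoter distances were tried.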

Additional observations from a re-analysis of the deposited data

How the results depend on the processing

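No paired analysis was possible because only peak lists were used, which give a single value for both replicates of a condition, so leaving out replicate 1 or replicate 2, or adding a replicate block, was not run on them, and signal per library was not analysed here. The share of control peaks lost in the 10 windows, 36.5%, was 60% when more than 75% of the larger peak had to overlap and 23.1% with only the strongest control peaks, and it lay between 32.8% and 42.9% under the other settings tried, of which the one without the CTCF window was chosen after seeing the data. The median change in percentile of the kept peaks, -9.1 points, was 2.54 points when ranked among kept peaks only, a setting also chosen after seeing the data, which takes the lost peaks out of the ranks. That ranking cannot show a fall shared by all kept peaks. Arisen peaks numbered 3, and 8 when more than 50% of the larger peak had to overlap. The share of control peaks at a site higher in control cells, 47.1%, was 34.1% when the site had to cover at least 50% of the peak. The share of control peaks with a consensus match, also 47.1%, was 7.06% with no mismatch and 82.4% with at most 2. These changes follow from the stricter or looser rules themselves. The number of genes with a promoter peak was 5, and 4 within 500 bp of a start, where NIPBL dropped out.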

Other observations

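Windows of 16 further genes for histone chaperones and nucleosome factors, a list fixed with earlier results of these data known, held 106 control peaks. Of these, 36 were lost (34.0%, Wilson 95% interval 25.6% to 43.4%). Over the whole control list the share was 42.9%, which lies within that interval. Separately, the sum over 10 bins of fold enrichment gave a count of 42.9 lost peaks out of the 106. The following genes were named after their values were seen. At HMGB1, which encodes an abundant chromatin protein that bends DNA, 7 of 8 control peaks were lost and 7 overlapped a site that the authors list as higher in control cells. At CHD1, which encodes a chromatin remodeler, 0 of 7 were lost, although 3 overlapped such a site. At ASF1B, a chaperone of histones H3 and H4, 1 of 17 was lost, and at its paralog ASF1A 3 of 5. The median GC content around the peaks was 60% at ASF1B, 38% at ASF1A, 41.7% at HMGB1 and 39.6% at CHD1. Promoter peaks were present at ASF1A, ASF1B and NAP1L1, and all 3 were kept. Over all protein-coding genes 22% had a promoter peak, and of those genes 72.9% had one that was kept. The window of DAXX, which encodes a chaperone of the histone variant H3.3, held 0 peaks in either list.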
